A study of Mus musculus with 2 samples.

Results

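The mitochondrial genome transcripts are the 37 genes whose symbols start with mt-, out of 55536 annotated genes: 13 coding genes, 2 ribosomal RNA (rRNA) genes and 22 transfer RNA (tRNA) genes. They were chosen by symbol alone, and all 37 lie on the mitochondrial chromosome (chrM, build mm10, GENCODE M21). The samples were adrenal glands of female mice of the F1 hybrid strain B6CASTF1/J, aged 25 days, with no treatment named. Total RNA was sequenced in 2 libraries of 1 group, replicate 1 and replicate 2, each from 300 ng of RNA with a directional kit and ERCC spike-ins, which are synthetic RNAs added in known amounts. The labels name separate animals in the tissue descriptions but give the same donor and library description for both, so the spread between the libraries may be technical. With 1 group there is no test between conditions, and every SD (n = 2) and every ratio describes these libraries only.

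The mitochondrial genome encodes core subunits of 4 respiratory complexes and the RNAs needed to translate them inside the organelle. Both of its strands are transcribed as long precursors that are cut at the tRNAs into single messages, rRNAs and tRNAs, and the messages then receive poly(A) tails. All other subunits, the ribosomal proteins and the transcription machinery come from nuclear genes. In the adrenal cortex mitochondria also hold the enzymes that begin and end glucocorticoid synthesis.

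Each library was quantified in 2 ways, here called the first and the second quantification. The first gives expected counts, the estimated number of reads of a gene, which can be fractional. Their total was 19366343 for replicate 1 and 33728646 for replicate 2, and in the second quantification 22007795 and 33594884. The labelled tissue was checked against its markers: all 6 cortical genes and all 5 chromaffin genes had counts in both libraries, and the cortical list summed to 9199 and 16915 TPM (transcript abundance scaled for length and library). Gm42418, a transcript that lies within a ribosomal RNA gene, took 24.2% of counts in replicate 1 and 0.605% in replicate 2. Spike-ins held 0.473% and 0.797%. These shares enter every share of all counts and every TPM below.

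Near-identical nuclear sequence bears on how reads of these genes were counted. A set of 16 nuclear genes matched a mitochondrial transcript on the same strand over most of their length, and together they paired with 11 of the 13 coding genes, all but mt-Nd1 and mt-Atp8. The closest were 7 pseudogenes on the minus strand of chr1:24611535-24616197, a stretch of 4663 bases that corresponds to chrM:6390-11042. Of these, 5 had no difference from their partner over the aligned bases: Gm28661 (mt-Co2, 681 of 684 bases), Gm10925 (mt-Atp6, 678 of 681), Gm28437 (mt-Co3, 783 of 784), Gm10222 (mt-Nd4l, 294 of 297) and Gm28439 (mt-Nd4, 876 of 1378). The other 2, Gm29216 (mt-Co1, 483 of 1545 bases) and Gm28438 (mt-Nd3, 345 of 348), each had 1 difference. The sequences below, from the GENCODE M21 transcripts, show those differing bases in capitals, A1066T and T3C, with positions counted from 1 at the first base of the mitochondrial gene. They are shown because the aligned stretches are otherwise the same. Gm29216 lacks the first 1062 bases of mt-Co1, and Gm28438 lacks the last 3 of mt-Nd3.
mt-Co1, chrM:6390-6423 (+): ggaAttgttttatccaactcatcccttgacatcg
Gm29216, chr1:24616155-24616188 (-): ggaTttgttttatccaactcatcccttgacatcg
mt-Nd3, chrM:9459-9491 (+): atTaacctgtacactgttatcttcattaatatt
Gm28438, chr1:24613087-24613119 (-): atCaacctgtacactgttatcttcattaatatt

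For mt-Co2 the whole of the copy is contained in the gene. The ends of both show that the stop codon, in capitals, is the sole part of the annotated gene that the annotated copy lacks.
mt-Co2 end, chrM:7637-7696 (+): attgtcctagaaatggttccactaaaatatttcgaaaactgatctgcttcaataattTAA
Gm28661 end, chr1:24614885-24614941 (-): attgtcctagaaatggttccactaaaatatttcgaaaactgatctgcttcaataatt

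Some members also share bases with each other. The last 43 bases of mt-Atp8 (chrM:7927-7969) are the first 43 of mt-Atp6, in another reading frame, and mt-Nd4l shares its last 7 bases with the start of mt-Nd4 (chrM:10167-10173). The capitals below mark the shared bases, which lie on the plus strand in both genes of a pair.
mt-Atp8 end, chrM:7910-7969 (+): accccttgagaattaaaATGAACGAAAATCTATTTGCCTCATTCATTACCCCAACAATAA
mt-Atp6 start, chrM:7927-7986 (+): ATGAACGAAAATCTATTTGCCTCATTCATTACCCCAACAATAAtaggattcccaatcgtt
mt-Nd4l end, chrM:10114-10173 (+): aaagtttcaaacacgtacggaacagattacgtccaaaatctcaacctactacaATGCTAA
mt-Nd4 start, chrM:10167-10226 (+): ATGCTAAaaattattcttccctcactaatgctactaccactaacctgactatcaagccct

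The coding genes carry the signs of mitochondrial translation. Of the 13 annotated starts 9 were ATG, and mt-Nd1 began with GTG, mt-Nd2 with ATA, mt-Nd3 with ATT and mt-Nd5 with ATC. At the other end mt-Co3, mt-Nd4 and mt-Cytb stopped 1 base, a T, past their last whole codon, so that the annotated gene holds no complete stop codon. As background, the poly(A) tail completes such codons.

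Mitochondrial genes took a large share of the reads, and most of those reads were ribosomal. They held 5182786 counts in replicate 1, or 26.8% of all counts (95% Clopper-Pearson interval 26.7 to 26.8), and 5488305 in replicate 2, or 16.3% (16.3 to 16.3). The mean was 21.5 ± 7.42% (SD, n = 2). The second quantification gave 22.5% and 16.4%. Replicate 1 was the higher in both. These intervals and all later ones cover counting error only, as amplified reads are not separate molecules. With the ribosomal RNA genes of the nuclear genome, Gm42418, Lars2, the abundant small RNAs 7SL and 7SK and spike-ins taken out of the denominator, the share was 38.6% in replicate 1 and 17.7% in replicate 2.

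Within the mitochondrial total the libraries differed in the balance of ribosomal and coding RNA. The coding genes held 13.6% of mitochondrial counts in replicate 1 and 28.6% in replicate 2, a mean of 21.1 ± 10.6% (SD, n = 2). The rRNA genes held 86.4% and 71.4%, a mean of 78.9 ± 10.6%. The ratio of rRNA to coding counts was thus 6.35 in replicate 1 and 2.502 in replicate 2. The second quantification gave coding shares of 14.9% and 28.7%, so each library kept its value within a few points in either table. The spike-in label names libraries with reduced ribosomal RNA, and the part of that depletion in the difference was not tested.

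**Figure D1:**
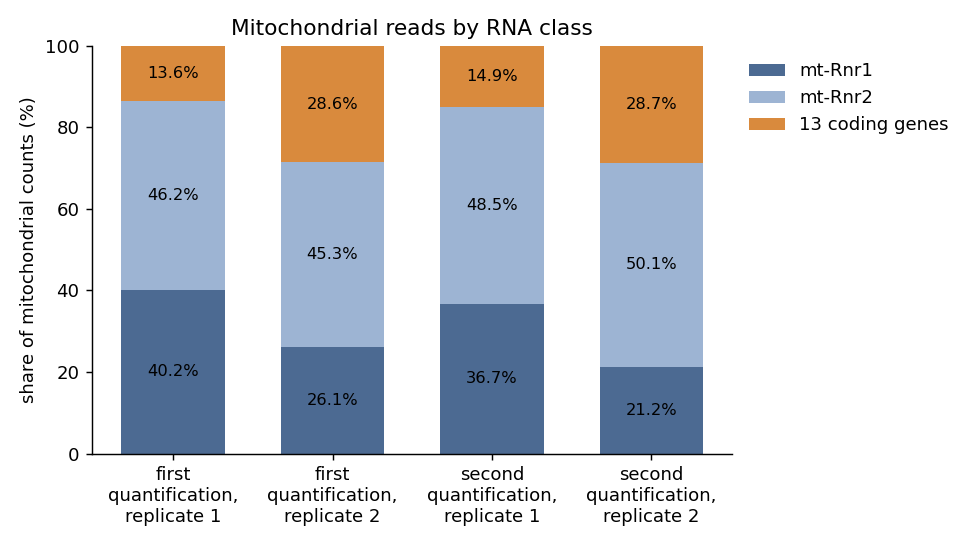
Stacked bars give the share of mitochondrial counts (percent, y axis) held by mt-Rnr1, mt-Rnr2 and the 13 coding genes in each library and quantification. The coding share was 13.6% and 28.6% in the first and 14.9% and 28.7% in the second, and tRNA genes, at 0 counts, have no band.

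The coding genes alone can be set against all counts or against coding reads. They held 3.64% of all counts in replicate 1 and 4.65% in replicate 2, where replicate 2 was the higher. The mitochondrial coding genes held 9.11% of the reads of all coding genes (Lars2 left out) in replicate 1 and 6.56% in replicate 2, a mean of 7.84 ± 1.8% (SD, n = 2). The second quantification gave 8.60% and 6.09%. With this denominator replicate 1 was the higher. In bulk tissue, fewer cells rich in mitochondria and less mitochondrial RNA per cell cannot be told apart.

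The rRNA genes were the most abundant members. The gene mt-Rnr1 (chrM:70-1024), the RNA of the small ribosomal subunit, had 2081190 counts in replicate 1 and 1433144 in replicate 2, which is 40.2% and 26.1% of the mitochondrial total. The gene mt-Rnr2 (chrM:1094-2675), the RNA of the large subunit, had 2396068 and 2488040 counts, or 46.2% and 45.3%. The share of mt-Rnr2 was thus nearly level between the libraries and that of mt-Rnr1 was not.

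Per length the order of the rRNA genes differed between libraries. In TPM, mt-Rnr1 reached 148452 in replicate 1 and 53243 in replicate 2, a mean of 100848 ± 67323 (SD, n = 2). For mt-Rnr2 the values were 98652 and 53354 TPM, a mean of 76003 ± 32031. The ratio of mt-Rnr1 to mt-Rnr2 in TPM was 1.505 in replicate 1 and 0.998 in replicate 2, and 1.47 and 0.851 in the second quantification. Each SD was larger than the difference between the means of the 2 genes.

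The 7 subunits of complex I, which oxidises NADH and pumps protons, ranged from 550 TPM (mt-Nd6, replicate 1) to 5564 TPM (mt-Nd1, replicate 2). The gene mt-Nd1 (chrM:2751-3707) held 1.25% of mitochondrial counts in replicate 1 and 2.74% in replicate 2, at 4624 and 5564 TPM. The gene mt-Nd2 (chrM:3914-4951) held 1.41% and 2.29%, at 4758 and 4250 TPM. Both are core subunits of the membrane arm, and in TPM mt-Nd1 was higher in replicate 2 and mt-Nd2 in replicate 1. The largest counts of the complex were those of mt-Nd4 (chrM:10167-11544), at 2.24% and 3.62% of mitochondrial counts and 5537 and 4945 TPM. The longest coding member, mt-Nd5 (chrM:11742-13565), held 1.46% and 2.67%, yet per length it was lower, at 2678 and 2699 TPM. These are proton-pumping subunits at the far end of the arm. The short genes mt-Nd3 (chrM:9459-9806) and mt-Nd4l (chrM:9877-10173) held 0.235% and 0.432%, and 0.269% and 0.515%. Their levels were 2982 and 3026 TPM for mt-Nd3 and 4298 and 4541 TPM for mt-Nd4l, close between libraries in the first quantification. In the second, mt-Nd3 was at 3941 and 4112 TPM but mt-Nd4l at 3537 and 81.8 TPM, far lower in replicate 2.

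The gene mt-Nd6 (chrM:13552-14070) stood apart as the sole coding gene on the minus strand. It held 0.0730% of mitochondrial counts in replicate 1 and 0.139% in replicate 2, at 550 and 578 TPM. Per length, mt-Nd5, its neighbour on the plus strand, was 4.87-fold higher in replicate 1 and 4.67-fold higher in replicate 2. The second quantification gave 4.46-fold and 3.62-fold. Of all coding counts, 0.536% and 0.487% came from the minus strand. The coding strand of mt-Nd6 was 28.1% G and 5.97% C, whereas the other 12 coding genes ran from 5.88% G (mt-Atp8) to 16.1% G (mt-Co1) and from 22.1% C (mt-Nd3) to 29.97% C (mt-Nd4l). The last 14 bases of mt-Nd5 and of mt-Nd6 overlap on opposite strands at chrM:13552-13565, and the kit was directional per the labels.

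Complex III has 1 mitochondrial subunit, cytochrome b, which carries electrons from ubiquinol. Its gene mt-Cytb (chrM:14145-15288) held 2.29% of mitochondrial counts in replicate 1 and 4.52% in replicate 2. Per length it reached 6948 and 7553 TPM in the first quantification, a mean of 7250 ± 428 (SD, n = 2). By these values it ranked 3 among the coding genes in replicate 1 and 2 in replicate 2. No copy of it had counts in the first quantification.

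Of the complex IV genes, mt-Co1 (chrM:5328-6872), whose product holds the site where oxygen is reduced, was the highest coding member in counts in both libraries. It held 3.72% and 8.70% of mitochondrial counts, at 8131 and 10504 TPM. The genes mt-Co2 (chrM:7013-7696), which receives electrons from cytochrome c, and mt-Co3 (chrM:8607-9390) were listed far lower. Expected counts of mt-Co2 were 0 in replicate 1 and 2205 in replicate 2 (0 and 120 TPM), and mt-Co3 had 14940 and 44799 (1332 and 2080 TPM). Both have a copy on chromosome 1 without a difference, and the copies took most of the reads.

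Complex V, the ATP synthase, has mt-Atp6 (chrM:7927-8607), part of its proton channel, and mt-Atp8 (chrM:7766-7969), a small membrane subunit. The genes lie on 1 message as background, yet mt-Atp8 was given 14338 counts in replicate 1 and 21855 in replicate 2 and mt-Atp6 5097 and 91999. Their TPM were 8338 and 6619 for mt-Atp8 and 535 and 5027 for mt-Atp6. The ratio of mt-Atp8 to mt-Atp6 in counts was 2.81 in replicate 1 and 0.238 in replicate 2, so the libraries disagree on which is the higher. Only mt-Atp6 has a copy with reads.

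**Figure D2:**
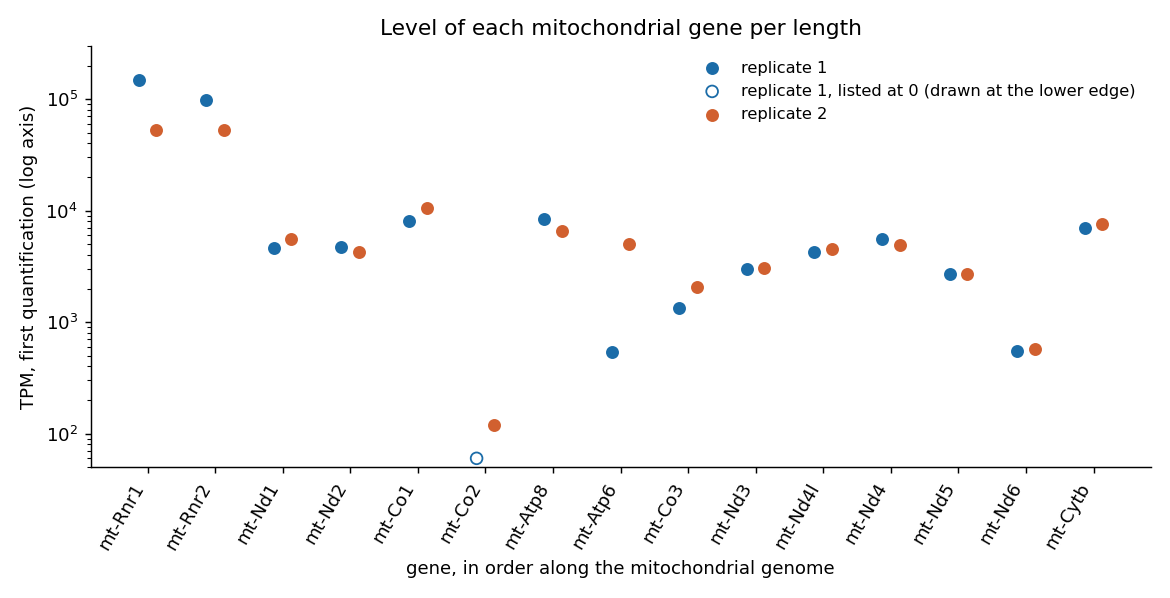
Points give the TPM (log axis) of the 15 members with counts, in order along the mitochondrial genome, with 1 colour for each library and an open circle where a gene is listed at 0. The coding genes other than mt-Co2, mt-Co3, mt-Atp6 and mt-Nd6 sit between 2678 and 10504 TPM, mt-Nd6 sits at 550 and 578, and mt-Co2 and mt-Atp6 show the widest gaps between the libraries.

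As deposited in the first quantification, the order of coding genes by TPM was led by mt-Co1, at 9318 ± 1678 TPM (mean ± SD, n = 2). It was followed by mt-Atp8 at 7479 ± 1215, mt-Cytb at 7250 ± 428 and mt-Nd4 at 5241 ± 419. The next were mt-Nd1 at 5094 ± 664, mt-Nd2 at 4504 ± 360 and mt-Nd4l at 4419 ± 172. Of these, mt-Atp8 and mt-Cytb differed by less than the SD of either gene, as did mt-Nd4 and mt-Nd1, and mt-Nd2 and mt-Nd4l. The steps from mt-Co1 to mt-Atp8 and from mt-Cytb to mt-Nd4 were larger than either SD. Yet in replicate 1 mt-Atp8 (8338 TPM) was above mt-Co1 (8131 TPM), so the order of these 2 genes differed between the libraries. Below them came mt-Nd3 at 3004 ± 31.2, mt-Atp6 at 2781 ± 3176, mt-Nd5 at 2688 ± 15.03 and mt-Co3 at 1706 ± 529. The lowest were mt-Nd6 at 564 ± 19.5 and mt-Co2 at 59.9 ± 84.7. For mt-Atp6 and mt-Co2 the SD exceeded the mean. Across the 13 genes the log2(TPM + 1) values of the libraries had a Pearson correlation of 0.909 and a Spearman correlation of 0.791. These describe genes that share libraries and are not independent replicates. In the second quantification the order was led by mt-Atp6 in both libraries, at 11249 and 20245 TPM, and mt-Atp8 was last at 0.

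The chromosome 1 copies held a sizeable part of the coding reads. All copies together were given 296217 counts in replicate 1 and 643706 in replicate 2, equal to 29.6% and 29.1% of the reads on coding members plus copies. In the second quantification these shares were 16.3% and 15.8%. Of the 16 copies 5 had a mean count of at least 100. Gm28661 had 101515 and 231576 counts, more than any coding member other than mt-Co1, mt-Nd4 and mt-Cytb in replicate 1 and than any other than mt-Co1 and mt-Cytb in replicate 2. Gm10925 had 107270 and 197548 counts and Gm28437 had 67863 and 163055. Gm29216 had 19368 and 46134, and Gm10222 had 36 in replicate 1 against 5175 in replicate 2. The remaining copies held few reads. Whether any of these reads came from nuclear transcripts was not tested.

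How a member and its copy divided their reads depended on the estimate more than on the library for mt-Co3 and on both for mt-Atp6. The first quantification also gives posterior mean counts, which average over the ways to divide ambiguous reads, with a posterior SD. Of the summed reads, mt-Atp6 received 4.54% in replicate 1 and 31.8% in replicate 2 by expected counts. By posterior means it received 4.95% and 38.2%, and in the second quantification 88.9% and 96.5%. The 3 estimates thus put mt-Atp6 below its copy or far above it from the same reads. For mt-Co2 the shares were 0% and 0.943% by expected counts. They were 9.91% and 11.2% by posterior means and 3.02% and 4.35% in the second quantification, so Gm28661 was ahead in every estimate. For mt-Co3 they were 18.0% and 21.6%, 35.7% and 43.7%, and 32.6% and 32.4%.

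The genes whose copy differs by 1 base kept most of their reads. Of the reads of mt-Co1 and its copies, mt-Co1 received 90.8% and 91.2% by expected counts and 95.7% and 98.9% in the second quantification. The copy covers only the last 483 bases of the gene. Of the reads of mt-Nd3 and Gm28438, mt-Nd3 received 99.2% in replicate 1, and Gm28438 had 0 counts in replicate 2. For mt-Nd4l the shares were 99.7% and 84.5% by expected counts, although its copy has no difference, and the second quantification gave Gm10222 0 counts. Gm28439, which matches the first 876 bases of mt-Nd4, had 0 expected counts in both libraries.

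The deposited uncertainty was wide for mt-Co2, mt-Co3 and mt-Atp6, which have exact copies, but not for every member with an exact copy. The posterior mean of mt-Co2 was 10066 counts with a posterior SD of 2738 in replicate 1 and 26163 with 5144 in replicate 2, against expected counts of 0 and 2205. The deposited interval of its posterior mean TPM ran from 521 to 1562 and from 751 to 1864. In replicate 1, where the expected count of mt-Co2 was 0, this interval did not include 0. For mt-Co3 the posterior means were 29559 (posterior SD 4694) and 90861 (8255). For mt-Atp6 they were 5563 (595) and 110679 (5263), and for mt-Nd4l, also with an exact copy, 12533 (616) and 26941 (940). For mt-Nd4, whose copy is exact over part of the gene, they were 115987 (6.99) and 198858 (10.45). For mt-Nd3, whose copy differs by 1 base, they were 11502 (386) and 23634 (60.7). The coding members without an annotated copy, mt-Nd1 and mt-Atp8, had a posterior SD of 0, as had mt-Cytb and mt-Nd5, which have annotated copies.

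**Figure D3:**
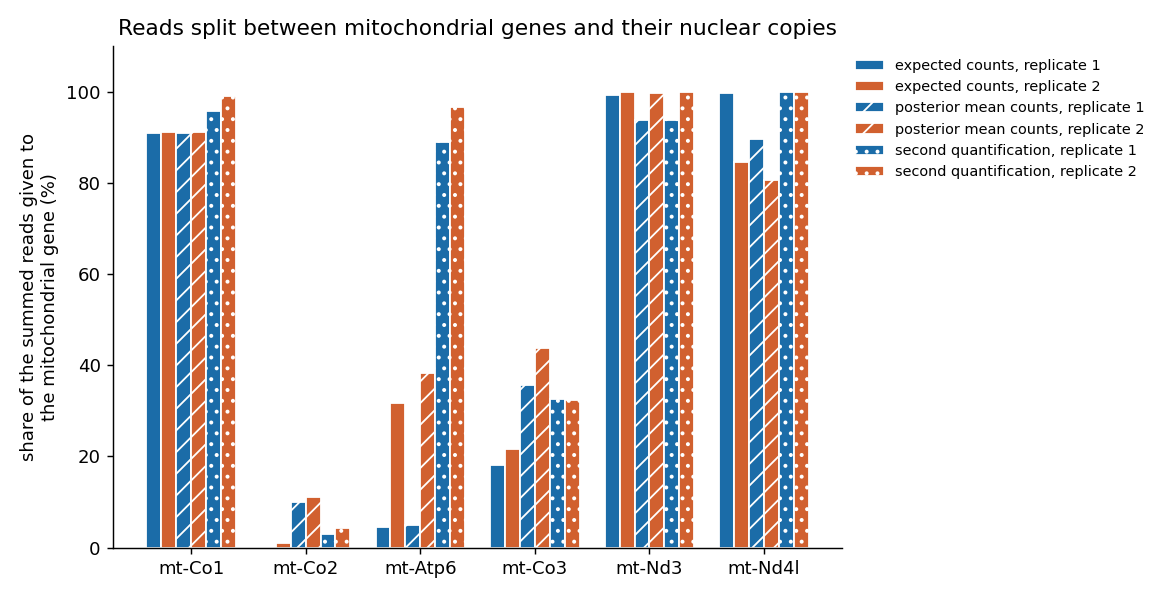
Bars give the percent of the reads of a member plus its nuclear copies that went to the member, for 6 genes with a copy on chromosome 1, by 3 estimates (expected counts, posterior means, second quantification) and library. The bars of mt-Atp6 run from 4.54% to 96.5%, those of mt-Co2 stay at or below 11.2%, and those of mt-Co1 stay above 90%.

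Summed with copies in the first quantification, the shares of the coding genes differed less between libraries for some genes than for others. The gene mt-Co1 held 21.2% and 23.7% of these summed coding counts, a mean of 22.4 ± 1.79% (SD, n = 2), and mt-Atp6 held 11.2% and 13.1%, mt-Co2 10.1% and 10.6%, and mt-Co3 8.27% and 9.40%. Relative to their shares, the gaps were wider for mt-Atp8 (1.43% and 0.989%), mt-Nd2 (7.31% and 5.68%) and mt-Nd4 (11.6% and 8.995%). Each of these was higher in replicate 1. The sums of the 13 genes had a Pearson correlation of 0.992 between libraries on the log2 scale and a Spearman correlation of 0.923. By complex, I held 35.9% in replicate 1 and 31.0% in replicate 2 and III held 11.9% and 11.2%. Complex IV held 39.6% and 43.7% and V held 12.6% and 14.1%. Complexes IV and V were thus the higher in replicate 2, and I and III the lower. The second quantification, also with copies, kept this for I (36.1% and 31.9%) and IV (42.5% and 46.6%). It did not for III (12.4% and 12.5%) or V (9.02% and 8.97%), which were nearly level.

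Per length, the summed counts of the first quantification gave another order than its deposited TPM. Relative to mt-Cytb, reads per base of effective length (the positions where a fragment can start) were 1.70 in replicate 1 and 2.09 in replicate 2 for mt-Atp6, the highest in both. For mt-Co2 the values were 1.53 and 1.68, for mt-Co1 1.29 and 1.53, and for mt-Co3 1.06 and 1.28. These are neighbours on the genome. Between mt-Co2 and mt-Atp6 lies mt-Atp8, which had 1.20 and 0.876. It has no annotated copy, although its position falls within the stretch that the chromosome 1 copies span. Among the complex I genes on the plus strand, mt-Nd4 was the highest in replicate 1, at 0.797, and mt-Nd1 in replicate 2, at 0.737. The gene mt-Nd5 was the lowest of these, at 0.385 and 0.357. The lowest was mt-Nd6, at 0.0792 and 0.0765. As deposited in the first quantification, mt-Co2 ranked last of the 13 by TPM in both libraries, and with its copies it ranked 2 in both. By TPM of the second quantification it ranked 12 in replicate 1 and 11 in replicate 2. Summed with copies there, mt-Co2 had 83130 and 182909 counts over effective lengths of 392 and 350 bases. For mt-Atp6 these were 79398 and 167949 counts over 389 and 347 bases, so mt-Co2 was the higher of the 2 per length.

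The quantifications were compared for all genes in both tables, counting a gene as apart where its counts differed 2-fold or more in either library with 10 or more counts in 1 table. Of the 37 members, 15 had such counts and 5 were apart: mt-Co2, mt-Atp8, mt-Atp6, mt-Nd3 and mt-Nd4l. Of the 20429 genes tested 17.3% were apart. At a minimum of 100 counts the same 5 members were apart, beside 5.94% of 13156 genes. Summed with copies in both tables, 3 remained apart (mt-Atp8, mt-Nd3 and mt-Nd4l), an alternative chosen after seeing the data. On TPM the 5 were mt-Co2, mt-Atp8, mt-Atp6, mt-Co3 and mt-Nd4l. The other 10 members lay between 0.660-fold and 1.44-fold of the first table.

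In 2 of the 5, the second quantification was the higher, and both have an exact copy. It gave mt-Co2 2509 counts in replicate 1 and 7956 in replicate 2, against 0 and 2205. It gave mt-Atp6 70612 and 162105, against 5097 and 91999, which is 13.9-fold and 1.76-fold. Summed with copies, the second table gave mt-Co2 and mt-Atp6 lower values than the first.

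In the other 3 the second quantification was the lower, and these are the 3 shortest coding genes. The gene mt-Atp8, of 204 bases, had 14338 and 21855 counts in the first table and 0 in both libraries in the second. For mt-Nd4l, of 297 bases, the second table gave 3326 and 124 counts against 13936 and 28275. For mt-Nd3, of 348 bases, it gave 5226 and 7875 against 12161 and 23695. The next shortest, mt-Nd6 with 519 bases, was at 0.661-fold and 0.660-fold. The members of 955 bases or more lay between 0.814-fold (mt-Rnr1, replicate 2) and 1.12-fold (mt-Co1, replicate 1).

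Gene length and effective length moved with that difference. Effective length in the first table was 105 bases for mt-Atp8 in both libraries, and 34.04 and 44.9 bases in the second. For mt-Nd4l it was 198 against 58.3 and 65.7, and for mt-Cytb 1045 against 852.0 and 809.9. Among genes outside the mitochondrial genome with 1 transcript and 100 or more counts, all 62 (replicate 1) and all 86 (replicate 2) of 100 to 300 bases were 2-fold or more lower in the second table. From 300 to 500 bases the shares were 79.7% and 81.4%, from 500 to 1000 bases 33.3% and 32.6%, and from 1000 to 2000 bases 6.94% and 7.91%. The part of length in the difference of the members was not tested beyond these values.

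**Figure D4:**
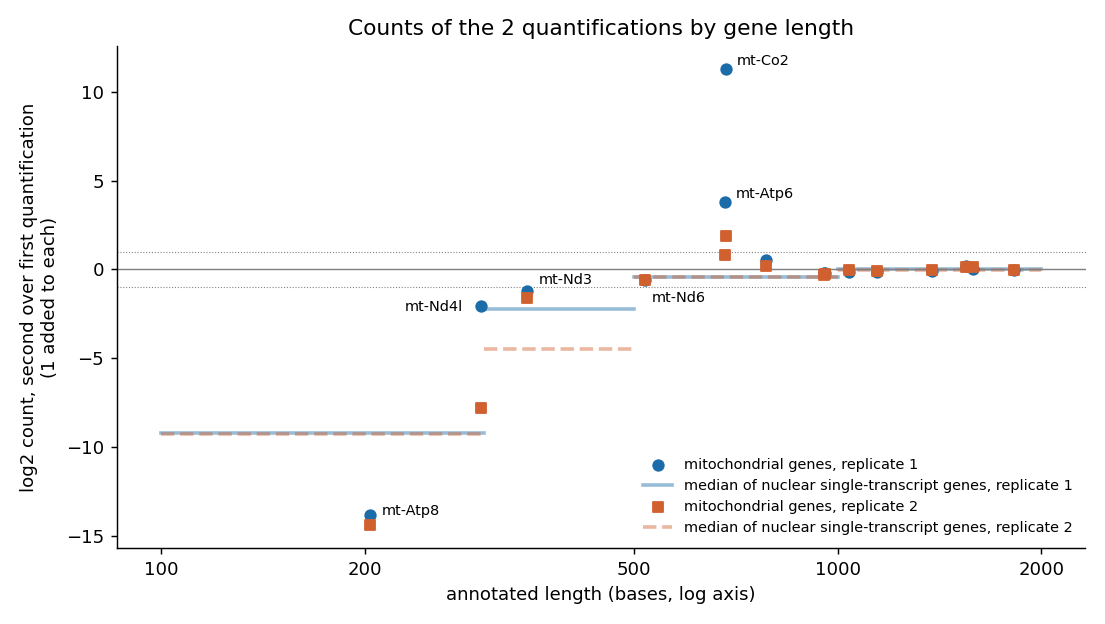
Points give log2 of the second over the first quantification's count (1 added to each, y axis) for the 15 members with counts against annotated length in bases (log axis), by library. Lines give the median of single-transcript genes outside the mitochondrial genome in each length class, and dotted lines mark 2-fold. The members below 500 bases lie under the lower dotted line, mt-Co2 and mt-Atp6 lie above 0, and the rest lie between the dotted lines.

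No tRNA gene received a read. All 22, of which 8 lie on the minus strand, were listed at 0 in both libraries and both quantifications. They carry the amino acids for mitochondrial translation. In replicate 1, 0 of 5182786 mitochondrial counts allows a share of up to 5.79e-05% (3 counts), and in replicate 2, 0 of 5488305 allows up to 5.47e-05%. Those limits cover counting error only and say nothing of the RNA in the cell. They cannot bound the share, because all 22 had an effective length of 0 in the first quantification. The tRNAs run from 59 bases (mt-Ts2) to 75 bases (mt-Tl1), and those 2 sequences are printed because every member with reads is longer.
mt-Ts2, chrM:11613-11671 (+): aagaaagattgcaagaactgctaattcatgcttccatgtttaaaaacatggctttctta
mt-Tl1, chrM:2676-2750 (+): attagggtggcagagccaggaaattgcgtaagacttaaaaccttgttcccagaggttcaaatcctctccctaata

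Every other short entry shared this. In the first quantification, 28583 entries had an effective length of 0, up to 99 bases long, and 0 of them had counts in either library. That outcome was fixed in advance, because such an entry has no position where a fragment can start. The second table had 1068 entries of up to 75 bases, and 0 of them had counts. As no entry of this length had counts in either quantification, levels of mitochondrial tRNAs could not be read from these tables.

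Between the libraries, replicate 2 was compared with replicate 1 on counts scaled by TMM (a trimmed mean of the gene ratios), with 1 count added. This covered the 11542 annotated genes whose counts averaged 100 or more. Of the 37 members 15 passed that minimum, all 13 coding genes and both rRNA genes, while no tRNA did. Of these 2 were 2-fold or more higher in replicate 2, beside 0.347% of all genes tested, and 3 were 2-fold or more lower, beside 0.936%. Scaled by total counts the members numbered 2 higher and 1 lower, and all genes 4000 higher and 36 lower, against 40 and 108 with TMM.

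Both genes listed as higher share reads with a copy. The counts of mt-Co2, 0 and 2205, set against a floor of 3 counts in replicate 1, gave a value at least 229-fold higher in replicate 2. With the copies added its log2 ratio was -0.48, with posterior means it was -0.31, and in the second quantification it was 0.03. For mt-Atp6 the log2 ratio was 2.49 (counting interval 2.45 to 2.53), with the copies added -0.32 and in the second quantification -0.44. Neither was 2-fold higher once copies were added.

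The 3 lower members were mt-Rnr1, mt-Rnr2 and mt-Atp8. The log2 ratio of mt-Rnr1 was -2.22 (counting interval -2.22 to -2.22), which is 4.66-fold higher in replicate 1, and that of mt-Rnr2 was -1.63 (-1.63 to -1.63), or 3.09-fold. The log2 ratio of mt-Atp8 was -1.08 (-1.11 to -1.04), just past the 2-fold limit, and on total counts it was -0.19. On total counts mt-Rnr1 was at -1.34 and mt-Rnr2 at -0.75.

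The remaining 10 coding genes had log2 ratios between -0.91 and -0.10 in the first quantification. In the second, mt-Nd4l was at -6.37 and mt-Nd3 at -1.04, so the lower members there were mt-Rnr1, mt-Rnr2, mt-Nd3 and mt-Nd4l. The lowest were mt-Nd4 at -0.91 and mt-Nd2 at -0.91, followed by mt-Nd5 at -0.73 and mt-Nd3 at -0.72. The ratio of mt-Nd6, from the other strand, was -0.67, between those of mt-Nd3 and mt-Nd4l (-0.66). The highest were mt-Nd1 at -0.48, mt-Co1 at -0.37 and mt-Co3 at -0.10. Of the 15 members with a value 13 lay below 0 and 2 above. On total counts mt-Nd2 and mt-Nd4 were at -0.02 each and the other 8 were above 0, so the sign of these ratios depends on the scaling.

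The median log2 ratio of the 13 coding genes was -0.66, beside 0.03 for all genes tested. It was also -0.66 with mt-Co2 at its bound and -0.62 with copies added. On total counts it was 0.22, beside 0.91 for all genes. The distance to the median of all genes was -0.69, which a change of scaling cannot alter. It was -0.62 in the second quantification and -0.57 over all genes with no minimum count. Gm42418 and the liver genes described below were also higher in replicate 1, and their part in the difference was not tested.

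**Figure D5:**
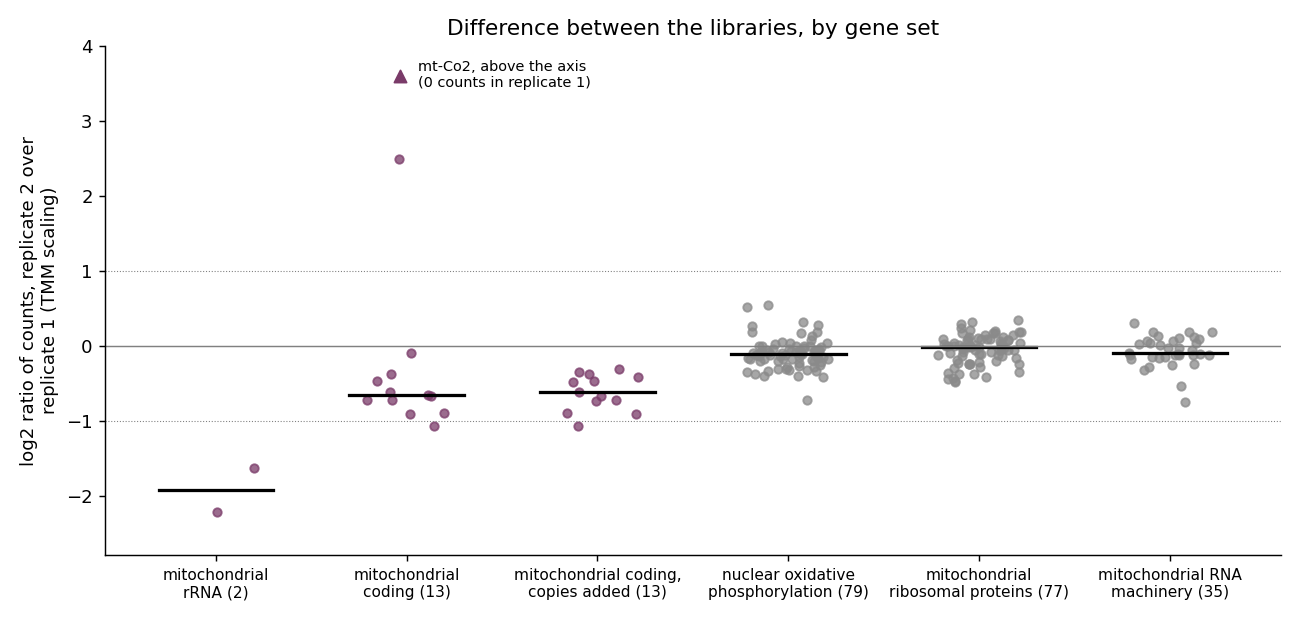
Points give the log2 ratio of TMM-scaled counts, replicate 2 over replicate 1, for genes averaging 100 counts or more, by gene set, with black lines at the medians and dotted lines at 2-fold. The rRNA genes lie below -1, most coding genes lie between -1.1 and 0, and the nuclear sets centre near 0, with mt-Co2 drawn as a triangle because its value is above the axis.

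Nuclear genes for the same complexes did not show a shift of that size. The lists below were chosen by symbol. Of 86 nuclear subunits of oxidative phosphorylation 79 passed the minimum, with 0 of them 2-fold apart in either direction and a median log2 ratio of -0.11 (64 below 0 and 15 above). By complex the medians were -0.09 for I (38 of 38 passing), -0.08 for II (4 of 4), -0.11 for III (9 of 9), -0.18 for IV (13 of 18) and -0.13 for V (15 of 17). Atp5b, the catalytic subunit of ATP synthase, had the highest level, at 524 TPM in replicate 1 and 803 in replicate 2. By the mean of both libraries Cox4i1, a subunit of complex IV, followed at 270 and 409. The highest ratios were those of Cox7c (0.55) and Atp5l (0.52) and the lowest those of Atp5k (-0.72) and Ndufab1 (-0.42). In the second quantification Cox7c was at -0.05 and Atp5l at 0.21.

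Levels of the nuclear subunits were below those of most mitochondrial ones per length. The median of the 13 mitochondrial coding genes was 4298 TPM in replicate 1 and 4541 in replicate 2, and that of the 86 nuclear subunits was 73.5 and 116. The 13 mitochondrial genes summed to 50711 and 57506 TPM, and the 86 nuclear genes to 8080 and 12333. These levels are RNA only, and each mitochondrial gene is present in many genome copies per cell, as background.

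The genes that serve mitochondrial expression were also level. Of 78 mitochondrial ribosomal protein genes 77 passed, 0 were 2-fold apart, and the median log2 ratio was -0.01 (45 below 0 and 32 above). Mrpl33 was the highest of these, at 85.7 and 145 TPM, followed by Mrps21 at 57.2 and 91.7. The extremes were Mrpl46 (0.35), Mrpl24 (0.32), Mrps15 (-0.49) and Mrpl42 (-0.47). Of 39 genes of mitochondrial transcription, processing and decay 35 passed, 0 were 2-fold apart, and the median was -0.10 (21 below 0 and 14 above).

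Within the latter list, Lonp1, a protease of the matrix, was the highest at 118 and 178 TPM, followed by Hsd17b10, a subunit of the enzyme that cuts the 5' ends of mitochondrial tRNAs, at 33.4 and 58.4. The highest ratios were those of Tfb1m (0.30), which methylates the small-subunit rRNA, and Trnt1 (0.18), which adds CCA to tRNAs. The lowest were Fastkd5 (-0.75), which acts on messages not bounded by tRNAs, and Elac2 (-0.54), which cuts the 3' ends of tRNAs. None of these reached 2-fold.

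Markers of other cell types were read in the same fit. All 6 cortical genes lay between -0.20 (Star) and 0.22 (Cyp21a1), and all 5 chromaffin genes between -0.15 (Th) and 0.20 (Chga). Of 5 fat genes all were below 0, with a median of -0.32, and Ucp1, the uncoupling protein of brown fat mitochondria, was at 185 TPM in replicate 1 and 165 in replicate 2, a log2 ratio of -0.91. The fat list summed to 754 and 934 TPM. All 5 liver genes were 2-fold or more lower in replicate 2, the list summed to 191 and 3.74 TPM, Alb was at 141 and 3.47 TPM, and Gc was at 0 in replicate 2. Of 5 red blood cell genes 0 were 2-fold apart, with a median of -0.15 and sums of 1517 and 2088 TPM. The 4 muscle genes summed to 0.63 and 0.08 TPM and the 4 kidney genes to 0.22 and 0.05, with Myh6, Slc34a1 and Kap at 0 in both libraries. The medians of the fat, liver and red blood cell lists were below 0, as was that of the mitochondrial coding genes. Those of the cortical and chromaffin lists were above 0, at 0.11 and 0.12. The part of these cell types in the mitochondrial difference was not tested.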

How the data were processed

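Total RNA sequencing of 2 adrenal gland libraries was analysed from 3 tables each. Per the labels and the notes beside the files, reads were quantified on mm10 with GENCODE M21; the sources used here name no program or version. Expected counts were deposited by the authors (estimated counts in the second quantification), not whole and not scaled between libraries. The authors also deposited TPM, which sum to the same total in each library. The deposited isoform percent served only to check that each member with reads had 1 transcript.

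Gene symbols, types and positions came from GENCODE M21. The second quantification was summed per gene, and 55450 of 55536 annotated genes were found in it. Shares have exact Clopper-Pearson intervals at 95%. Counts were rounded for TMM (edgeR 4.0.16, R 4.3.3) and ratios used a prior of 1 count. A ratio of 2-fold or more at a mean count of at least 100 was counted as apart; this has no p-value. The ratios were tested on simulated data with known changes. Nuclear copies were M21 transcripts aligned by blastn 2.17.0 to mitochondrial transcripts, at 90% identity or more over 50% or more of their length, on the same strand. Transcripts stood in for the genome, which was not used here. The computations used Python 3.11.15, pandas 2.3.3, scipy 1.17.1 and matplotlib 3.10.9.

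The members and gene lists were chosen with earlier results of these data known. Named are all members with reads, the 5 copies with the highest mean count, in each nuclear list the 2 highest by TPM and the 2 highest and 2 lowest by ratio, and the markers; other copies are named for their sequence. The rule's 5 tRNA genes with the highest count could not be chosen, as all were at 0, and 2 are named for their length. Alternatives covered scaling (total counts, spike-ins, DESeq2 1.42.0 size factors, TMM on nuclear genes), the count estimate, the quantification, filters, copies and the denominator.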

Additional observations from a re-analysis of the deposited data

How the results depend on the processing

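The mean shares of the mitochondrial total and of its coding and rRNA classes moved by less than 1 SD under the second quantification, posterior means, TPM and added copies, as did the mitochondrial share with the reduced denominator; that SD is wide. All tRNA values were 0. The mitochondrial share was 16.3% to 26.8% and the coding share 13.6% to 28.6% with 1 library left out. The median log2 ratio of the coding genes was 0.22 on total counts, -0.53 on spike-ins, -0.58 in the second quantification (12 genes, as mt-Atp8 had no counts), and -0.62 with posterior means and with copies added. Members 2-fold or more higher in replicate 2 fell from 2 to 0 in the second quantification, 1 with posterior means and 0 with copies added, and members lower from 3 to 1 on total counts, with 4 in the second quantification (mt-Rnr1, mt-Rnr2, mt-Nd3 and mt-Nd4l). All genes higher numbered 4000 on total counts, 72 on spike-ins, 337 at a minimum of 10 and 830 without one, and all genes lower 36 on total counts, 543 and 3380. Members apart between quantifications numbered 3 with copies added. On total counts 8 coding genes changed sign: mt-Nd1 (0.41), mt-Co1 (0.51), mt-Co3 (0.78), mt-Nd3 (0.16), mt-Nd4l (0.22), mt-Nd5 (0.15), mt-Nd6 (0.21) and mt-Cytb (0.26), and mt-Co3 also on spike-ins (0.03). Of the members 2-fold apart, those that changed sign were mt-Co2, at -0.31 with posterior means and -0.48 with copies added, and mt-Atp6, at -0.44 in the second quantification and -0.32 with copies added. The cause was not tested, except that adding copies changes the counts by construction. Posterior means for ratios, and copies for counts and single genes, were added after seeing the data. A ratio needs both libraries, so none was computed with 1 left out. No paired analysis was possible because there was 1 group. Counting intervals of the ratios were narrow for the members with reads in both libraries. They do not cover how reads were divided among copies, nor differences between quantifications such as that of mt-Atp8, which has no annotated copy.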
